A study of Mus musculus with 15 samples.

Results

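S phase and mitosis genes are the genes whose products copy the chromosomes and then divide them between daughter cells. A set of 44 such genes was chosen by name: 20 of DNA replication, 21 of mitosis and 3 growth-linked genes of chromatin and microtubules (Stmn1, H2afz and Hmgb2) that belong to neither class. A gene was tested where a probe set of the array lay above the 40th percentile of its own array on at least 3 arrays, and the brightest such probe set stood for the gene. This left 39 of the 44 genes, 18 of replication, 18 of mitosis and the 3 others, among 9532 genes tested in all.

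The samples were liver tissues of mice aged 16 months, hybridised to Affymetrix mouse arrays. The question was how gene expression changed in liver carcinogenesis of Mdr2-knockout mice, which lack the transporter (current symbol Abcb4) that moves phosphatidylcholine into bile. Homozygous Mdr2-KO mice gave 6 tumours and 6 non-tumorous livers, and heterozygous mice, which carry 1 knockout allele, gave 3 control livers. Mice 3 and 4 gave 1 liver and 1 tumour each, mice 5 and 6 gave 1 liver and 2 tumours each, and mice 1 and 2 gave a liver only. Tumours of 1 mouse share that animal, so the 6 tumours came from 4 mice. Strain and sex are not given in the sources used here. The number of arrays, and above all the 3 controls, limits the precision of each value.

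Replication starts when origin proteins load the MCM helicase on DNA in G1 and kinases fire it in S phase. Many genes of this phase are switched on by E2F factors, and genes of G2 and mitosis are switched on later through CHR elements and CCAAT boxes, which the MuvB complex with B-Myb and FoxM1 and the factor NF-Y bind. Most hepatocytes of an adult liver rest outside the cell cycle and enter it again after loss of liver tissue.

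Signals are the MAS5 intensities deposited by the authors, on a linear scale. Each array had a trimmed mean of about 150.1 and a median signal between 35.8 and 51.2. Abcb4 itself had signals of 1006.4, 778.9 and 886.0 in the controls, from 177.4 to 305.7 in the non-tumorous knockout livers and from 122.5 to 681.1 in the tumours. All knockout arrays were lower than all control arrays, and whether the probe set covers the deleted part is not given in the sources used here. Hepatocyte markers, 12 of them tested, had a summed signal of 117807 to 130052 in the controls, 92048 to 119996 in the livers and 81746 to 102290 in the tumours. All tissues thus carried the defining RNA of liver, and the sums of all tumours lay below those of all controls. From controls to tumours 12 of 12 markers changed downwards, with a median of -0.45 on the log2 scale, beside -0.021 over all genes. The ratio of the 3' to the 5' actin probe sets, a measure of RNA quality, differed between the groups, at 2.99 ± 0.41 in the 3 controls, 2.09 ± 0.39 in the 6 livers and 1.78 ± 0.21 in the 6 tumours (mean ± SD).

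Changes are differences of log2(signal + 9.1), where 9.1 was the 20th percentile of all signals, so the change of a dim gene is smaller than the ratio of its signals. A gene was called where its adjusted p in limma, over all 9532 genes, was under 0.05. Of the 39 members, 11 lay above the 40th percentile on all 15 arrays and 15 lay below it on every control array. These 15 passed the filter through knockout arrays alone, and the constant sets part of the size of their change from the controls. Of the 11 bright members, 2 were called in the livers against the controls (Mcm7 and Stmn1) and 3 in the tumours (Mcm7, Mad2l1 and Stmn1), all higher. Over all 9532 genes, bright or not, 1.38% rose in the livers and 4.01% in the tumours. In bulk tissue, more dividing cells and more RNA of these genes per cell cannot be told apart.

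In the non-tumorous knockout livers 7 of the 39 members (17.9%) rose against the controls and 0 fell. Over all genes 1.38% rose and 0.315% fell. The members that rose were 4 subunits of the MCM helicase (Mcm2, Mcm5, Mcm6 and Mcm7), the polymerase subunit gene Pole, the mitotic cyclin Ccnb2 and Stmn1, so that 5 of 18 replication members, 1 of 18 mitosis members and 1 of the 3 others were called. The classes had like medians, 0.69 for replication and 0.68 for mitosis on the log2 scale, beside -0.019 over all genes. The median over all 39 members was 0.68. Groups that did not overlap, with every knockout liver above every control, were seen for 12 of 39 members against 8.03% of all genes. Of these members, Mcm2, Mcm5, Pole, Ccnb2, Birc5, Kif20a and Tpx2 passed the filter through knockout arrays alone.

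**Figure D1:**
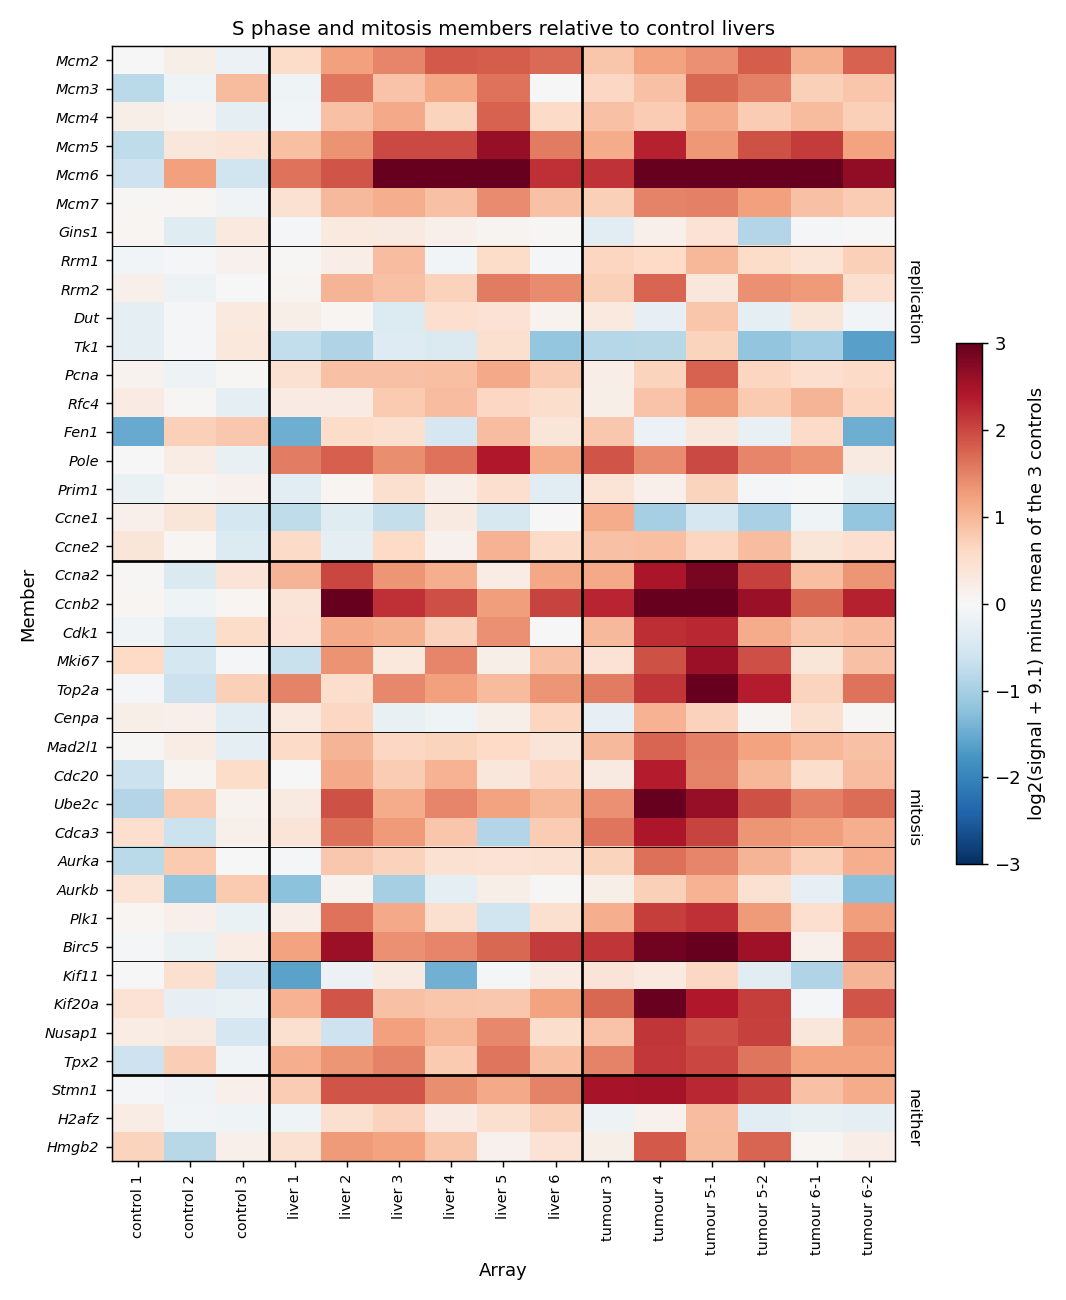
Each row is a member and each column an array. Colour gives log2(signal + 9.1) minus the mean of the 3 controls, with the scale ending at -3 and 3. Mcm6 and Ccnb2 were high on most knockout arrays, and the mitosis rows were darkest in tumours 4 and 5-1.

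The MCM helicase, which unwinds DNA at each fork, gave 4 of the 7 members called in the livers. Mcm6 had signals of 2.9, 34.5 and 3.2 in the 3 controls, from 48.7 over a median of 108 to 271.1 in the knockout livers and from 74.4 over 146 to 182.2 in the tumours. All knockout arrays lay above the controls, and livers and tumours overlapped. Mcm6 rose by 2.61 ± 0.46 (SE, log2 scale) from controls to livers (adjusted p = 0.00803) and by 2.92 ± 0.46 from controls to tumours (adjusted p = 0.00147), while tumours minus livers was 0.31 ± 0.38 (adjusted p = 0.843).

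Mcm5 had signals of 5.6, 22.5 and 23.8 in the controls, from 37.2 over 76.2 to 142.4 in the livers and from 44.3 over 68.2 to 114.7 in the tumours. It rose by 1.73 ± 0.37 in the livers (adjusted p = 0.025) and by 1.66 ± 0.37 in the tumours (adjusted p = 0.0117) relative to the controls. The knockout groups again overlapped each other and neither overlapped the controls.

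Mcm2 had signals of 13.7, 17.0 and 11.4 in the controls, from 24.6 over 60.2 to 73.3 in the livers and from 31.9 over 47.4 to 72.4 in the tumours. It rose by 1.44 ± 0.30 in the livers (adjusted p = 0.0199) and by 1.35 ± 0.29 in the tumours (adjusted p = 0.0111) against the controls. Liver 1 was the lowest knockout array for Mcm2, Mcm5 and Mcm6.

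Mcm7 was well above the 40th percentile on every array, so the constant bears little on its change. Its signals were 113.4, 115.4 and 101.8 in the controls, from 155.3 over 217 to 311.0 in the livers and from 186.1 over 239 to 331.4 in the tumours. It rose by 0.95 ± 0.22 in the livers (adjusted p = 0.0377) and by 1.10 ± 0.22 in the tumours (adjusted p = 0.00634). The other 2 subunits did not pass the test: Mcm4 had changes of 0.83 ± 0.29 in livers (adjusted p = 0.16) and 0.88 ± 0.29 in tumours (adjusted p = 0.0753), and Mcm3 0.85 ± 0.43 and 1.05 ± 0.43. Gins1, of the GINS complex that travels with the helicase, had changes of 0.13 ± 0.25 in livers and -0.11 ± 0.25 in tumours against the controls.

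Other probe sets of the MCM genes gave other sizes of change in the livers against the controls, all in the same direction. The second probe set of Mcm6 had 1.05, that of Mcm2 0.70, and the other 3 of Mcm7 lay between 0.20 and 1.17. For Mcm3 the other 3 probe sets past the filter lay between 0.66 and 1.64. With all probe sets of a gene averaged, Mcm2 and Mcm7 were not called in the livers and Mcm5 and Mcm6 were. In the tumours Mcm2, Mcm4, Mcm5, Mcm6 and Mcm7 were called in that setting. The members' sizes therefore belong to the probe set chosen.

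The promoters of the replication and mitosis members with the lowest adjusted p in the livers are shown to let the motifs of both classes be read beside the values. The windows run from 250 bases before to 50 after the RefSeq start (GRCm38.p6), so they hold upstream sequence and the beginning of the first exon. Capitals mark motifs of E2F type (spelled TTTGGCGC or TTTCGCGC, or else TTCCCGCC or TTTCCCGC), CHR elements (spelled TTTGAA or TTCGAA) and CCAAT boxes, searched on both strands, so that a match on the other strand reads in reverse complement. TTCGAA is its own reverse complement, and TTTCCCGC can overlap TTCCCGCC. Mcm6 (chr1:128359656-128359955, minus strand) held 3 E2F-type matches, of which the first pair overlap, and 2 CCAAT boxes. Mcm2 (chr6:88898731-88899030, minus strand) held 1 CHR element and 1 CCAAT box, and Mcm5 (chr8:75109259-75109558, plus strand) held 2 overlapping E2F-type matches and 3 CCAAT boxes.
Mcm6: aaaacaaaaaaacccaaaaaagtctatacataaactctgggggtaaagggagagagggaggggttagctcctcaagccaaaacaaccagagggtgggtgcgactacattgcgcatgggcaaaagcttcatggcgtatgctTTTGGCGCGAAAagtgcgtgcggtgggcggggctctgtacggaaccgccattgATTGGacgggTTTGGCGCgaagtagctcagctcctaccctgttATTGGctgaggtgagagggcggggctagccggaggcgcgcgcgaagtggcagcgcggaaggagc
Mcm2: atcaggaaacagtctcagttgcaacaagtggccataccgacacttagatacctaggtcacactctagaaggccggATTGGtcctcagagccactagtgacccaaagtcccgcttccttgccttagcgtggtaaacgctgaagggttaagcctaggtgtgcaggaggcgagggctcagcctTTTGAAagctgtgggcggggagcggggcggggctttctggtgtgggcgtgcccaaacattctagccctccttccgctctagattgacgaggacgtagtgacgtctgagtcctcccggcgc
Mcm5: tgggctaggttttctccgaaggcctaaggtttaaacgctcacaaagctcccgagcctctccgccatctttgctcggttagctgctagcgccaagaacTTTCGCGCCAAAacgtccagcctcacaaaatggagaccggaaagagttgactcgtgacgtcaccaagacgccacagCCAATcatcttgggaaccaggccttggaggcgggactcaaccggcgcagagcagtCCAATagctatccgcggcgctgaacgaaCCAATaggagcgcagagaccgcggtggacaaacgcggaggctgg

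Over all 32851 promoters of the table, 3.485% held an E2F-type motif, 19.23% a CHR element, 37.41% a CCAAT box and 7.525% both a CHR element and a CCAAT box. Of the 44 named genes, 35 had an entry, 16 of them of the replication class with 18 entries, since Mcm7 and Fen1 had 2 starts each. E2F-type motifs were in 8 of these 18 entries (44.4%), CHR elements in 3 (16.7%) and CCAAT boxes in 10 (55.6%). Mcm3, Mcm5, Mcm6, Mcm7, Rrm1, Prim1, Cdc6 and Rfc4 held the E2F-type matches. A match is a description of letters in the window and not of binding. No entry was found for Mcm4, Gins1, Pole, Ccne2, Ccna2, Aurkb, Kif20a, Tpx2 and Stmn1.

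Among proteins of the replication fork, Pole, the catalytic subunit of the leading-strand polymerase, rose in both knockout tissues. Its signals were 4.9, 7.3 and 3.0 in the controls, from 21.4 over 33.0 to 64.9 in the livers and from 7.8 over 29.2 to 46.7 in the tumours. The lowest tumour, 6-2, came close to the highest control, and neither knockout group overlapped with the controls. The rise was 1.64 ± 0.36 in the livers (adjusted p = 0.0291) and 1.39 ± 0.36 in the tumours (adjusted p = 0.0278), with all control signals below the 40th percentile.

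Pcna, the sliding clamp, had signals of 465.0, 391.7 and 445.8 in the controls, from 601.4 over 803 to 966.7 in the livers and from 495.8 over 667 to 1487.7 in the tumours. Neither knockout group overlapped with the controls, yet the changes of 0.84 ± 0.25 in livers (adjusted p = 0.0973) and 0.73 ± 0.25 in tumours (adjusted p = 0.0862) did not pass the test. In the fit without tumour 5-1, its highest array, the same change in the livers was called (adjusted p = 0.00757), because the spread is estimated over all 3 groups together. Rfc4, of the clamp loader, had 0.56 ± 0.27 and 0.79 ± 0.27, and the primase subunit Prim1 had 0.09 ± 0.24 and 0.16 ± 0.24 in the same order. Fen1, the flap nuclease, had changes near 0 on the probe set used, 0.06 ± 0.56 in livers, while its second probe set had 0.76. Prim1 likewise had 0.79 on a second probe set.

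Of the genes of nucleotide supply none passed the test on the probe sets used. With all probe sets of a gene averaged, Rrm1 and Rrm2 were called in the tumours against the controls. Rrm2, the subunit of ribonucleotide reductase that varies over the cell cycle, had signals of 68.1, 53.2 and 61.6 in the controls, from 64.4 over 126 to 197.1 in the livers and from 79.2 over 133 to 225.2 in the tumours. The tumours did not overlap with the controls, and the livers did through liver 1. Its changes were 0.94 ± 0.32 in livers (adjusted p = 0.148) and 0.99 ± 0.32 in tumours (adjusted p = 0.0718), and its other probe sets had larger ones, 1.56 and 1.07 in livers. Tk1, the thymidine salvage kinase, pointed the other way: its signals were 139.0, 166.3 and 215.6 in the controls, from 71.7 over 111 to 243.9 in the livers and from 49.0 over 84.9 to 277.4 in the tumours. Liver 5 and tumour 5-1, both of mouse 5, stood highest in their groups, and the other knockout arrays lay below the lowest control. Tk1 had changes of -0.52 ± 0.40 in livers (adjusted p = 0.564) and -0.81 ± 0.39 in tumours (adjusted p = 0.236). Without tumour 5-1 its change in the tumours was called, at -1.11 ± 0.30 (adjusted p = 0.0316). Rrm1 had 0.26 ± 0.22 and 0.66 ± 0.22, with 0.66 and 0.99 on a second probe set. The dUTPase gene Dut had 0.14 ± 0.27 and 0.15 ± 0.27.

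The G1/S cyclins, which with Cdk2 start S phase, did not pass the test either. Ccne1 had signals of 85.7, 100.7 and 50.2 in the controls, from 40.9 over 54.7 to 93.1 in the livers and from 29.1 over 42.9 to 176.2 in the tumours. All groups overlapped, with tumour 3 the highest array of all. Its changes were -0.34 ± 0.40 in livers and -0.44 ± 0.40 in tumours, and those of Ccne2 0.44 ± 0.32 and 0.70 ± 0.32.

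**Figure D2:**
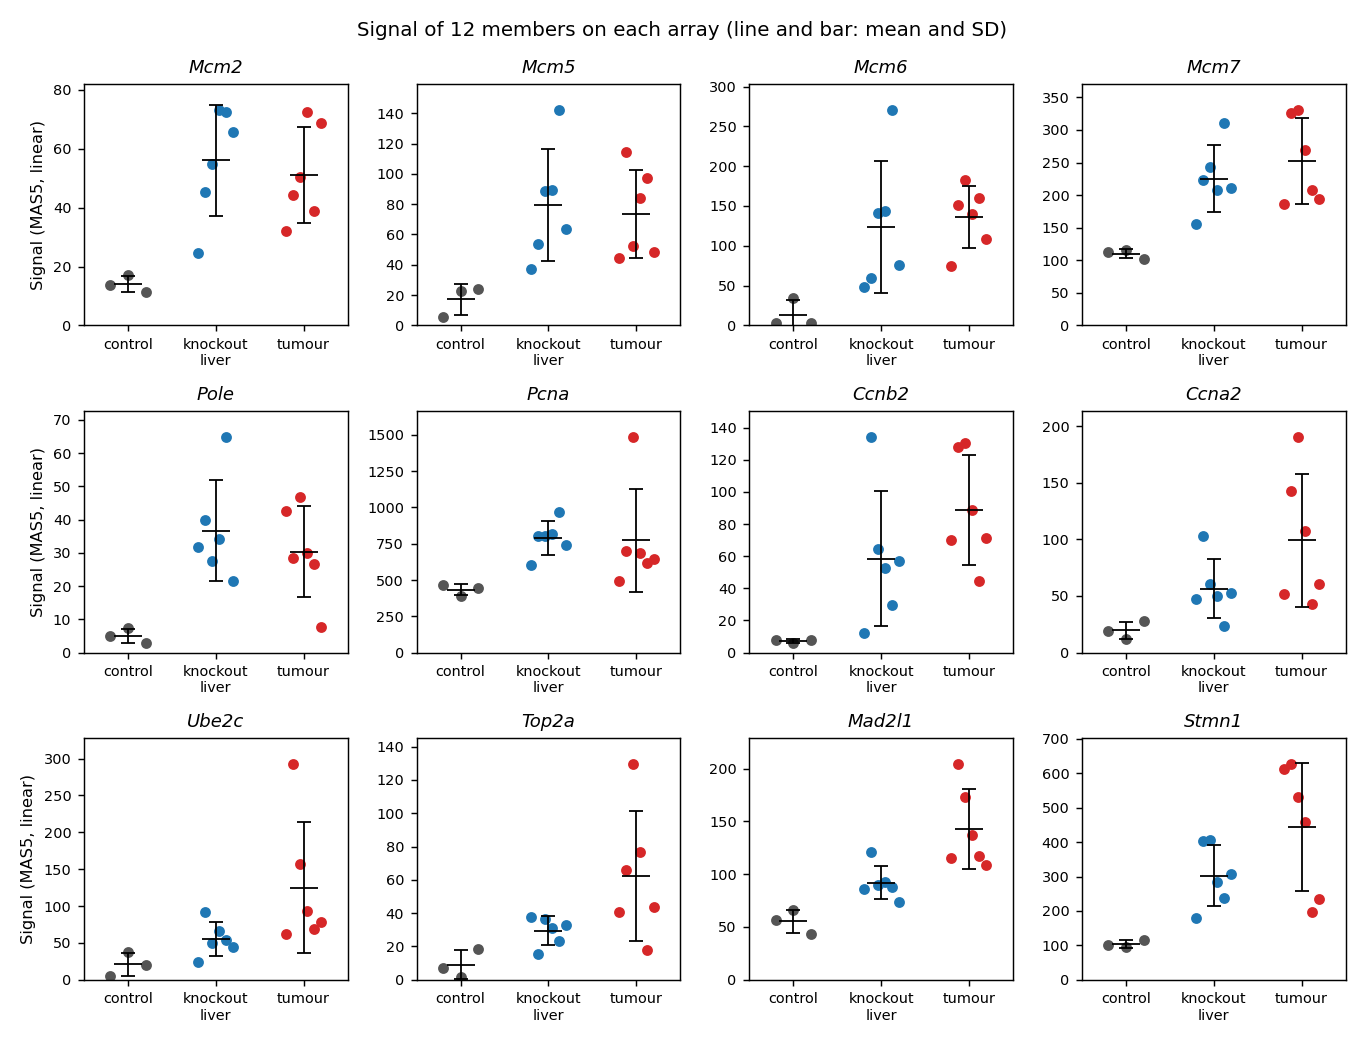
Signals of 12 members on each array, on a linear axis from 0, with 3 controls, 6 non-tumorous knockout livers and 6 tumours. The line and bar give the mean and SD of a group. MCM genes and Pole lie at like heights in livers and tumours, and Ube2c, Top2a and Mad2l1 reach higher in some tumours.

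Among the mitosis members Ccnb2, a partner of Cdk1 in mitotic entry, rose in the livers. Its signals were 7.9, 5.7 and 7.9 in the controls, from 12.1 over 55.0 to 134.3 in the livers and from 44.6 over 80.1 to 130.3 in the tumours. No knockout array overlapped with the controls, and liver 2 was above the highest tumour. Ccnb2 rose by 1.82 ± 0.43 in the livers (adjusted p = 0.042) and by 2.51 ± 0.43 in the tumours (adjusted p = 0.00242) against the controls.

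Ccna2, the cyclin of S phase and G2, had signals of 19.5, 11.7 and 27.5 in the controls, from 23.4 over 51.7 to 102.6 in the livers and from 43.1 over 83.7 to 190.6 in the tumours. The livers overlapped with the controls through liver 5, and the tumours did not. Ccna2 rose by 1.78 ± 0.41 in the tumours against the controls (adjusted p = 0.0143), with 1.13 ± 0.41 in the livers (adjusted p = 0.177). Cdk1, the mitotic kinase, had signals of 38.1, 27.9 and 65.6 in the controls, from 41.7 over 85.1 to 121.2 in the livers and from 80.9 over 95.5 to 236.0 in the tumours. Tumours 4 and 5-1 stood apart at the top. Cdk1 rose by 1.38 ± 0.37 in the tumours against the controls (adjusted p = 0.03), with 0.78 ± 0.37 in the livers (adjusted p = 0.307).

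Top2a untangles sister chromatids before they part. Its signals were 7.1, 1.7 and 18.4 in the controls, from 15.4 over 32.0 to 37.9 in the livers and from 17.8 over 54.6 to 129.6 in the tumours. Liver 2 and tumour 6-1 overlapped with the highest control. Top2a rose by 1.90 ± 0.42 in the tumours against the controls (adjusted p = 0.0115), with 1.16 ± 0.42 in the livers (adjusted p = 0.178). Mki67, the antigen Ki-67 of dividing cells, had 1.35 ± 0.52 in tumours (adjusted p = 0.131) and 0.59 ± 0.52 in livers, and the centromere histone Cenpa 0.35 ± 0.28 and 0.23 ± 0.28.

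Of the 4 members grouped here with the spindle checkpoint and the anaphase-promoting complex, 3 rose in the tumours against the controls (Mad2l1, Ube2c and Cdca3). Over all genes 4.01% rose in that comparison. Mad2l1, the checkpoint protein Mad2, had signals of 56.4, 65.9 and 43.7 in the controls, from 74.0 over 88.7 to 120.8 in the livers and from 108.4 over 127 to 204.5 in the tumours. The controls were below all knockout arrays, and the tumours and livers overlapped through liver 2. It rose by 1.21 ± 0.21 in the tumours (adjusted p = 0.0025) and had 0.65 ± 0.21 in the livers (adjusted p = 0.133). Ube2c, the ubiquitin-conjugating enzyme of the complex, had signals of 5.8, 37.1 and 20.2 in the controls, from 23.5 over 51.4 to 92.4 in the livers and from 61.5 over 85.3 to 292.8 in the tumours. Tumour 4 was far above the other arrays. Ube2c rose by 2.09 ± 0.44 in the tumours (adjusted p = 0.00903), with 1.15 ± 0.44 in the livers (adjusted p = 0.207).

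Cdca3, which takes part in mitotic entry, had signals of 27.1, 7.2 and 19.5 in the controls, from 4.9 over 35.3 to 72.0 in the livers and from 45.5 over 62.0 to 127.7 in the tumours. The tumours lay above the controls, and livers 1 and 5 did not. Cdca3 rose by 1.61 ± 0.44 in the tumours against the controls (adjusted p = 0.0359). Its other probe sets went the other way in that comparison, at -0.46 and -0.26, so its rise holds for the probe set used, and with all its probe sets averaged it was not called. Cdc20, the activator of the complex, had 1.09 ± 0.38 in the tumours (adjusted p = 0.0921) and 0.66 ± 0.38 in the livers, with 1.79 and 1.47 on a second probe set. With all its probe sets averaged, Cdc20 was called in the tumours against the controls.

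The kinase Aurka, which builds the spindle poles, had signals of 6.5, 37.6 and 18.3 in the controls, from 16.8 over 28.2 to 38.2 in the livers and from 33.8 over 47.4 to 75.9 in the tumours. The groups overlapped, since control 2 was close to the highest liver. Aurka rose by 1.10 ± 0.33 in the tumours against the controls, close to the threshold (adjusted p = 0.0494), and the call was lost in 12 of 15 fits that left out 1 array. Birc5, the survivin of the chromosomal passenger complex, had signals of 4.7, 3.2 and 7.2 in the controls, from 23.4 over 33.4 to 73.5 in the livers and from 6.4 over 63.1 to 181.6 in the tumours. Tumour 6-1 lay within the controls. Birc5 rose by 2.22 ± 0.53 in the tumours (adjusted p = 0.0178), with 1.74 ± 0.53 in the livers (adjusted p = 0.109, and 0.0292 in the fit without tumour 6-1). Plk1 had 1.39 ± 0.43 in the tumours (adjusted p = 0.0618) and Aurkb 0.16 ± 0.53.

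Of the spindle motors and microtubule factors, Kif20a, a kinesin of the late spindle, had signals of 12.8, 4.4 and 5.0 in the controls, from 19.2 over 22.3 to 50.1 in the livers and from 6.3 over 54.3 to 116.2 in the tumours. Tumour 6-1 again lay within the controls. Kif20a rose by 1.82 ± 0.47 in the tumours against the controls (adjusted p = 0.0269). Tpx2, which activates Aurka on the spindle, had signals of 2.2, 19.8 and 7.2 in the controls, from 20.9 over 31.4 to 43.9 in the livers and from 31.0 over 41.9 to 66.5 in the tumours. It rose by 1.60 ± 0.32 in the tumours (adjusted p = 0.00657), with 1.20 ± 0.32 in the livers (adjusted p = 0.0681), and the controls overlapped with neither group. Nusap1 had 1.44 ± 0.47 in the tumours (adjusted p = 0.0769) and the kinesin Kif11 0.18 ± 0.49, where a second probe set of Kif11 had 1.35.

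Stmn1, a protein that takes microtubules apart, was bright on every array, with signals of 99.9, 94.3 and 115.8 in the controls, from 180.9 over 296 to 405.2 in the livers and from 198.4 over 495 to 627.5 in the tumours. All knockout arrays were above the controls. Stmn1 rose by 1.42 ± 0.34 in the livers (adjusted p = 0.0405) and by 1.88 ± 0.34 in the tumours (adjusted p = 0.00304). The histone variant H2afz (listed as H2az1 in the array annotation) had 0.42 ± 0.24 and 0.02 ± 0.24, and the chromatin protein Hmgb2 0.72 ± 0.44 and 0.82 ± 0.44. Cdc6, Tyms, Bub1 and Bub1b had no probe set past the filter, with signals from 0.5 to 64.7, and Ccnb1 was not analysed here.

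Promoters of mitosis members are shown for the same reason as those above. Ccnb2 (chr9:70421505-70421804, minus strand) held 2 CHR elements and 3 CCAAT boxes. Birc5 (chr11:117848987-117849286, plus strand) and Mad2l1 (chr6:66534971-66535270, plus strand) held none of the letters searched. Ube2c (chr2:164769679-164769978, plus strand), with 1 CHR element and 6 CCAAT boxes, and Cdc20 (chr4:118437294-118437593, minus strand), with 1 and 2, were added after their motifs were seen, as examples of the arrangement most mitosis members had.
Ccnb2: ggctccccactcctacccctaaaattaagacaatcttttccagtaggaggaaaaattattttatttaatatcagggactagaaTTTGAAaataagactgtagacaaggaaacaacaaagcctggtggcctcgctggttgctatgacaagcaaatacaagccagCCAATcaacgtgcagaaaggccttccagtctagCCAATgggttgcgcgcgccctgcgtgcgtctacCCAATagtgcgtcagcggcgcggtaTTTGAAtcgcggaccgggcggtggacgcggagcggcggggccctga
Birc5: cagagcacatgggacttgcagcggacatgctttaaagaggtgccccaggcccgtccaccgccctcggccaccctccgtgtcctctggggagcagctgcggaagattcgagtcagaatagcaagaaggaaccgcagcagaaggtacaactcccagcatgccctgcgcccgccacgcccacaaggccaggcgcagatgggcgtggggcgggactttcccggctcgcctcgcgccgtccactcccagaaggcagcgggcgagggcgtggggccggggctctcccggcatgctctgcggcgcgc
Mad2l1: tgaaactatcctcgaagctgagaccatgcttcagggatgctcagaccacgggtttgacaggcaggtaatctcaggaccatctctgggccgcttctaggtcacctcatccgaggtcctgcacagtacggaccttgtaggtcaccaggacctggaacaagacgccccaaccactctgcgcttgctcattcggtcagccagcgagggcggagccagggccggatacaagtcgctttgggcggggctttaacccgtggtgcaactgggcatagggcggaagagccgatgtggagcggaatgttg
Ube2c: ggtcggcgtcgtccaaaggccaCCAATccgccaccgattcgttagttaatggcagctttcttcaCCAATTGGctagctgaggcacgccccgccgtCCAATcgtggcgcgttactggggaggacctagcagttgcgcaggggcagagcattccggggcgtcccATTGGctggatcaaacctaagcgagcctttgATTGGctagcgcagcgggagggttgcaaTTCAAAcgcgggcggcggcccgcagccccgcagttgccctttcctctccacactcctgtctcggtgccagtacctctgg
Cdc20: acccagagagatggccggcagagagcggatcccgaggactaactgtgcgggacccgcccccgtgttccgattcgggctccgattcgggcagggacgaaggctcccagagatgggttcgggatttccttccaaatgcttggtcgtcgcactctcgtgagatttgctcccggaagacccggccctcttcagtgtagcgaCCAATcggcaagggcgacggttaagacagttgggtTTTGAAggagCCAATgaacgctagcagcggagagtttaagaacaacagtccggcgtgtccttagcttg

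CHR elements were in 13 of 17 mitosis entries (76.5%) and CCAAT boxes in 14 (82.4%), and the same 13 entries held both, beside 7.525% of all promoters. The 17 include Bub1, Bub1b and Ccnb1, which were not tested on the arrays. An E2F-type motif was in 1 of the 17, that of Cdk1. The difference in motif shares between the classes was not tested.

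In the tumours against the controls 17 of 39 members (43.6%) rose and 0 fell, where 4.01% of all genes rose and 2.96% fell. They were the 5 replication members called in the livers, 11 mitosis members (Ccna2, Ccnb2, Cdk1, Top2a, Mad2l1, Ube2c, Cdca3, Aurka, Birc5, Kif20a and Tpx2) and Stmn1. The median change was 0.76 over the replication members and 1.42 over the mitosis members, beside -0.021 over all genes. All tumours lay above all controls for 20 of 39 members, against 5.34% of all genes. Among these members, Mcm2, Mcm5, Pole, Ccne2, Ccna2, Ccnb2, Cdca3, Plk1, Nusap1 and Tpx2 passed the filter through knockout arrays alone. Both comparisons with the controls use the same 3 control arrays, so their counts are not independent. Of the called members, 10 of 17 in the tumours and 4 of 7 in the livers were below the 40th percentile on every control array.

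These calls depended on the controls. Without control 1, 2 or 3 the count in the tumours was 6, 10 and 11 of 39 members and the count in the livers 0, 1 and 0. The livers' count was also 1 without liver 4, 3 without liver 2 or liver 3, and 4 without liver 6. With the actin 3' to 5' ratio as a covariate, which differed between the groups, limma called 0 members in either comparison, with 8 and 13 higher at an unadjusted p under 0.05 in livers and tumours where the fit without it had 18 and 28. The median changes over all members with the covariate were 0.67 in livers and 1.00 in tumours. The replication median was 0.54 in livers and 0.53 in tumours with it, and 0.69 and 0.76 without it. The mitosis median was 0.68 and 1.30 with it, and 0.68 and 1.42 without it.

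Tumours were then compared with the non-tumorous knockout livers. With limma 0 of 39 members were called, beside 0.021% of all genes higher and 0.115% lower. At an unadjusted p under 0.05, 7 members were higher and 0 lower, where 4.32% of all genes were higher and 6.01% lower. The 7 were Rrm1 and 6 mitosis members, Top2a, Mad2l1, Ube2c, Cdca3, Aurka and Plk1. This count was 16 without tumour 6-1, 2 without tumour 4, 3 without tumour 5-1 or liver 1, and 4 without liver 6, and between 6 and 10 without any other single array. Cdca3 had the largest change, 0.94 ± 0.36 (adjusted p = 0.361), on the probe set used, and Mad2l1 the lowest adjusted p, 0.238, at 0.57 ± 0.17. The other probe sets of Cdca3 past the filter had 0.17 and -0.089 in tumours minus livers. The median change was 0.64 over the mitosis members, with 18 of 18 above 0, and 0.027 over the replication members, with 10 of 18 above 0, beside 0.0089 over all genes. The mitosis members Plk1, Kif20a, Nusap1, Kif11 and Aurkb passed the filter only with tumour arrays counted, which favours a rise in the tumours. Of the replication members only Ccne2 did. With no filter on dim probe sets the mitosis median was 0.64 and the replication median -0.031. The replication median had no stable sign: it was -0.17 with the animal as a fixed block, which compares tumours with the livers of the same mice, -0.13 without liver 1, 0.13 without liver 5 and -0.015 with arrays centred on their medians. The mitosis median lay between 0.50 and 0.86 under all alternatives, and was 0.64 with the block. The number called with the block was again 0.

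**Figure D3:**
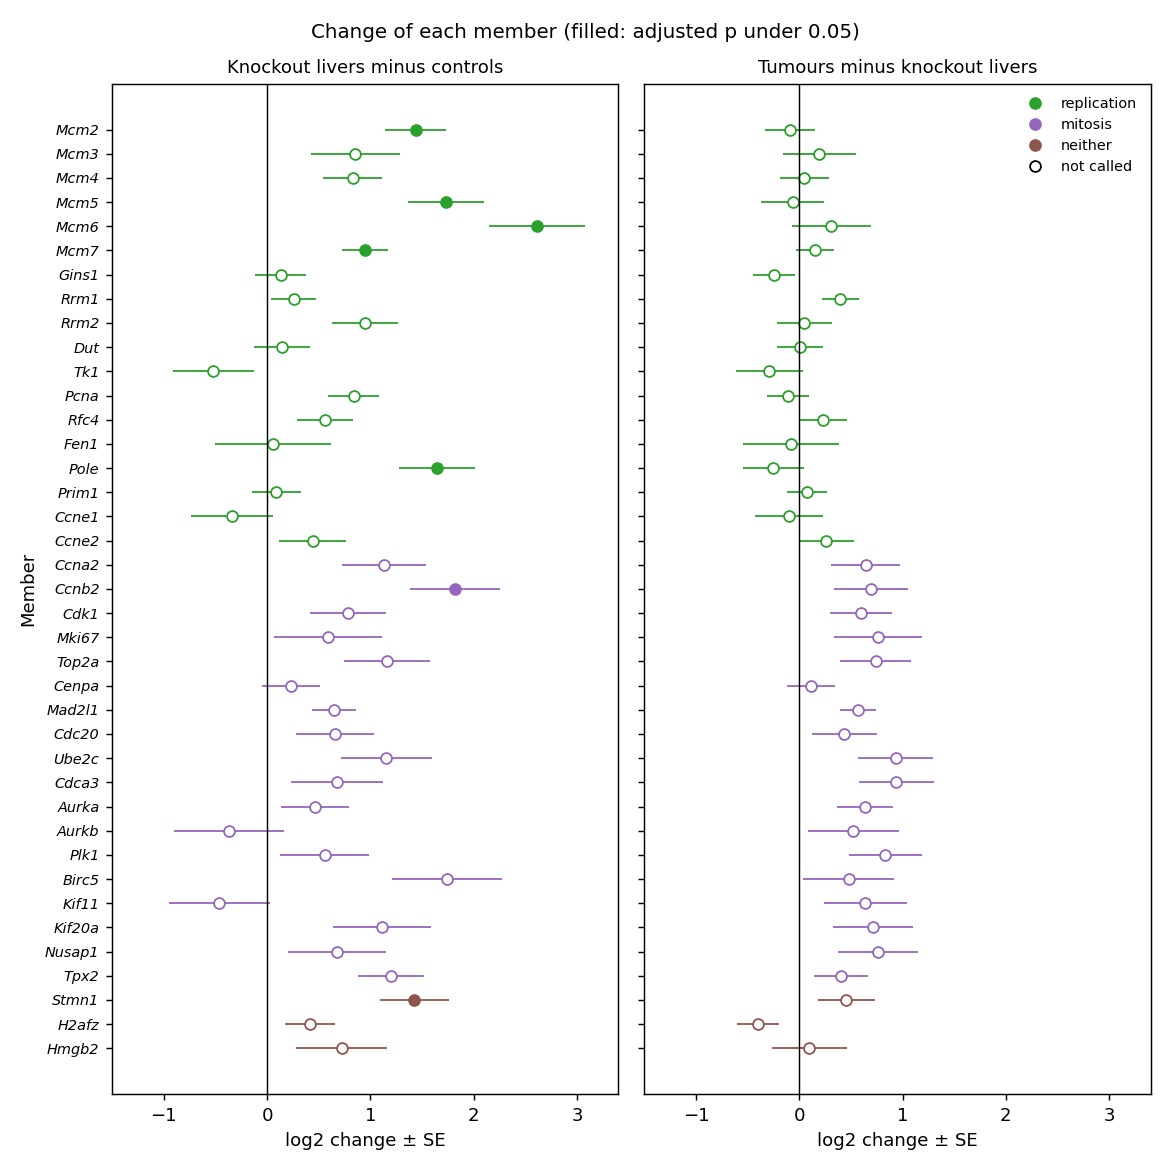
Change of each member with its standard error in livers minus controls (left) and tumours minus livers (right), on the log2(signal + 9.1) scale. Filled points had an adjusted p under 0.05, and the livers enter both panels. Replication members lie about 0 on the right, and all 18 mitosis members lie above 0 there without being called. Some of these mitosis members passed the filter only with tumour arrays counted.

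Replication and mitosis members were next set side by side in each tumour, as the median over the 18 members of a class, each taken on the log2 scale relative to the average of the 6 non-tumorous livers. Tumour 4 had 0.020 for replication and 1.28 for mitosis, and tumour 5-1 had 0.46 and 1.32, with 18 of 18 mitosis members above the livers' mean in both. Tumour 5-2 had 0.059 and 0.74. Tumours 3 and 6-2 had -0.23 and -0.21 for replication and 0.30 and 0.35 for mitosis, and tumour 6-1 had 0.026 and -0.079. The mitosis median was thus above the replication median in 5 of 6 tumours, and below it in tumour 6-1. The difference of the medians, mitosis minus replication, was 0.53 in tumour 3, 1.26 in tumour 4, 0.87 in tumour 5-1, 0.68 in tumour 5-2, -0.10 in tumour 6-1 and 0.56 in tumour 6-2. Its median was 0.62 with an SD of 0.45 over the 6 tumours. Set against the controls it was 0.65 and against the liver of the same mouse 0.80, where the 6 tumours ran from -0.40 to 1.35. Tumours 5-1 and 5-2, at 1.23 and 1.18 on that last reference, share liver 5. With liver 5 left out, the median relative to the remaining livers was 0.42. With no filter on dim probe sets, the median relative to all livers was 0.58.

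**Figure D4:**
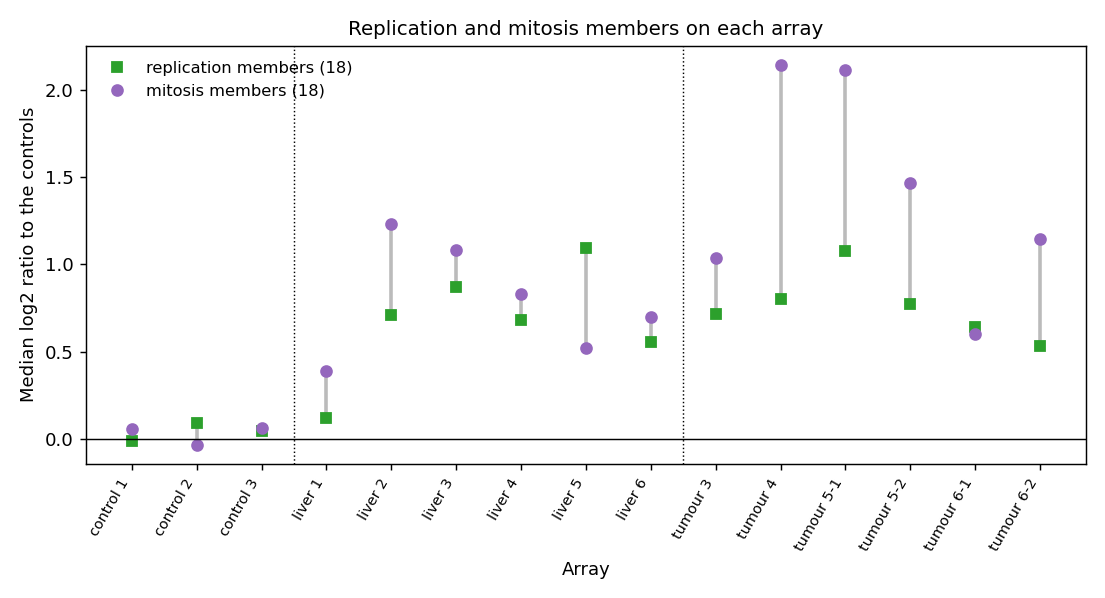
Median log2 ratio to the mean of the controls over the 18 replication members (squares) and the 18 mitosis members (circles) on each array. The grey lines join both classes of an array. Mitosis members stand above replication members by over 1 in tumours 4 and 5-1, and below them by the most in liver 5.

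The livers also differed among themselves. Liver 5 had the highest replication median relative to the controls, 1.10, and was the highest liver for 12 of 18 replication members, yet its mitosis median was 0.52. Liver 2 had the highest mitosis median, 1.23, was the highest liver for 10 of 18 mitosis members and had a replication median of 0.71. Liver 1 had the lowest medians, 0.12 and 0.39, and was lowest for 12 of 18 replication members. Mitosis minus replication ran from -0.58 in liver 5 to 0.52 in liver 2, so the livers' range reached into that of the tumours, -0.038 to 1.34 on the same reference. It was 0.27 in liver 1, 0.21 in liver 3, 0.15 in liver 4 and 0.14 in liver 6. Every liver but liver 5 thus had mitosis above replication, as did every tumour but 6-1, and the tumours reached larger differences. The controls lay between -0.13 and 0.07.

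Within the tumours, tumour 5-1 was highest for 12 of 18 replication members, and tumours 4 and 5-1 were highest for 9 and 8 of 18 mitosis members. Tumour 4 had the highest signals of Cdc20 (269.0, where the livers reached 109.6), Ube2c (292.8 against 92.4) and Kif20a (116.2 against 50.1). Tumour 5-1 had the highest signals of Top2a (129.6, where the livers reached 37.9), Mki67 (116.3 against 49.8) and Birc5 (181.6 against 73.5). Tumour 6-1 was lowest for 11 of 18 mitosis members and had Birc5 at 6.4 and Kif20a at 6.3, below all livers. The replication clamp Pcna differed between the tumours that led in mitosis members: it was 1487.7 in tumour 5-1 and 698.0 in tumour 4, where the livers lay between 601.4 and 966.7.

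Both tumours of mouse 5 and of mouse 6 could be set against each other. In mouse 5, tumour 5-1 was higher than 5-2 for 14 of 18 replication and 17 of 18 mitosis members, with median differences of 0.46 and 0.61. In mouse 6, tumour 6-1 was higher than 6-2 for 12 of 18 replication members and lower for 14 of 18 mitosis members, with median differences of 0.30 and -0.41. The classes thus moved together between the tumours of mouse 5 and apart between those of mouse 6.

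Summed markers of some other cells, namely macrophages, stellate cells and fibroblasts, and bile duct cells, were higher in all livers than in all controls. The tumours' ranges of these sums took in those of the controls. The 16 tested macrophage markers had a summed signal of 3329 to 3695 in the controls, 4974 to 8112 in the livers and 2133 to 12451 in the tumours, and 2 of 16 (Cd68 and Lyz2) rose in the livers and 7 of 16 (Cd68, Lyz2, Cd14, C1qa, C1qb, Mpeg1 and Tyrobp) in the tumours against the controls. The highest mitosis tumours lay at its ends, tumour 4 at 2133 and tumour 5-1 at 12451. Stellate cell and fibroblast markers (12 tested) summed to 1220 to 1885 in the controls, 2079 to 5186 in the livers and 901 to 3585 in the tumours, with tumour 4 the lowest. Of these Pdgfrb and Lum rose in the livers and Col1a1 rose by 2.64 ± 0.62 in the tumours against the controls (adjusted p = 0.0155). Bile duct markers (7 tested) summed to 110 to 216 in the controls, 337 to 538 in the livers and 89.6 to 408 in the tumours, and Cdh1 rose against the controls in both knockout tissues. Lymphocyte markers (10 tested) summed to 1308 in tumour 5-1 and to at most 671 on the other arrays, and Cd3d, Cd3e, Cd3g, Cd4, Cd8b1, Gzmb, Cd2 and Cd79b were not past the filter. Ptprc rose and Ighm fell in the tumours against the controls. Summed endothelial, neutrophil and erythroid markers had ranges that overlapped between all groups, while Emcn rose by 1.81 ± 0.46 (adjusted p = 0.024), Tfrc rose by 1.13 ± 0.31 (adjusted p = 0.0383) and Klf1 fell by 1.36 (adjusted p = 0.00316) in the tumours against the controls. Of the hepatocyte markers Tat and Pck1 fell in that comparison. Col1a1 and Emcn were below the 40th percentile on every control array. The part of these cells in the members' changes was not tested.

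**Figure D5:**
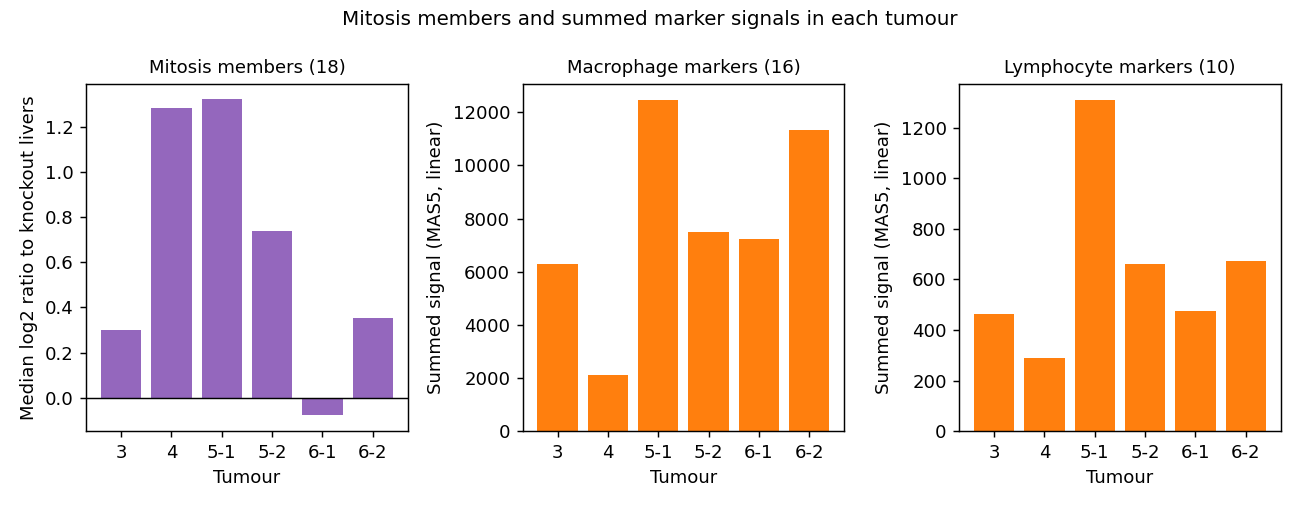
Left, the median log2 ratio of the 18 mitosis members to the mean of the livers in each tumour. Middle and right, the summed MAS5 signal of 16 macrophage and 10 lymphocyte markers. Tumours 4 and 5-1 have the highest mitosis medians, with marker sums of 2133 and 12451 for macrophages and 291 and 1308 for lymphocytes.

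Further genes of the same processes gave fewer calls. Against the controls, 1.38% of all genes rose and 0.315% fell in the livers, and 4.01% rose and 2.96% fell in the tumours. Of 49 other replication genes 39 were tested, and Rpa2, of the single-strand binding protein RPA, rose by 1.21 ± 0.29 in the livers (adjusted p = 0.042) and by 1.06 ± 0.29 in the tumours (adjusted p = 0.034) against the controls. Mcm10, an initiation factor outside the helicase ring, fell by 1.88 in the tumours (adjusted p = 0.0082), the opposite direction to the MCM helicase genes. Its mean signals were 1216 in the controls, 693 in the livers and 382 in the tumours, where Pcna had a mean of 434 in the controls. What the probe set of Mcm10 measures in resting liver was not tested. Against the controls 1 of 39 thus rose in each tissue and 1 fell in the tumours. The list's median was 0.22 in the livers and 0.26 in the tumours, and 0 were called in tumours against livers.

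Of 59 other mitosis genes 35 were tested, and 3 rose in the tumours against the controls, where 4.01% of all genes rose. Ckap2, a spindle protein, rose by 2.24 ± 0.44 in the tumours against the controls (adjusted p = 0.0058), with mean signals of 17.5 in the controls, 52.8 in the livers and 135 in the tumours. Shcbp1 rose by 1.90 ± 0.43 and Incenp, of the passenger complex, by 0.97 ± 0.27 in the same comparison. Ckap2, Shcbp1 and Incenp were below the 40th percentile on every control array, so they passed the filter through knockout arrays alone. Shcbp1 had a mean signal of 1.67 in the controls and was above that percentile in 2 of 6 livers and 3 of 6 tumours. The constant therefore sets part of the size of these changes. The kinesin Kif2c fell by 1.11 in the livers against the controls (adjusted p = 0.0439), 1 of 35 where 0.315% of all genes fell. The list's median was 0.22 in the livers and 0.57 in the tumours against the controls, and 0.41 in tumours against livers with 30 of 35 above 0.

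Regulators of these genes, the E2F, RB, B-Myb and FoxM1 list, were tested for 22 of 28 genes. Rbl2, the pocket protein of resting cells, fell by 1.00 in the tumours against the controls (adjusted p = 0.0208), and no other gene of the list was called in any comparison. In the tumours 1 of 22 thus fell, where 2.96% of all genes fell. Its median was -0.024 in the livers and 0.16 in the tumours against the controls.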

How the data were processed

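Values are probe set signals, that is intensities on a linear scale, made by the authors with MAS5, per the submitters' processing notes. Its version and settings are not given in the sources used here, and no detection calls were used. The table held 22690 probe sets, which the platform annotation paired with 1 gene (20393), several genes (691, not used) or none (1606).

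Signals were transformed as log2(signal + 9.1). Probe sets above the 40th percentile on at least 3 arrays were kept (16128), and the one with the highest mean stood for its gene. All 15 arrays were fitted with limma 3.58.1 (R 4.3.3), eBayes with a trend and the animal as a random block, whose consensus correlation was -0.017, with Benjamini-Hochberg adjustment over 9532 genes. So close to 0, it counts tumours of 1 mouse nearly as separate animals. The pairing rests on the labels. Residuals of livers and tumours of 1 mouse correlated between -0.15 and 0.088, and those of different mice between -0.10 and 0.17. The fit was tested on simulated data. The members and lists were chosen with earlier results of these data known. All members are accounted for. Called members, and the brightest of a role with none called, have their control signals in full and the lowest, median and highest of each group of 6, and so have Pcna and Rrm2, chosen after their values were seen. Other lists are named by their called genes.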

Additional observations from a re-analysis of the deposited data

Results flagged for a closer look

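Within the groups of 6, a single array stood far from the others in 5 of 82 sets of values (the members and the class medians, each in livers and in tumours), and chance alone gives about 1 in 20. Tumour 5-1 was high for Tk1 (277.4, the other tumours 49.0 to 91.4), Pcna (1487.7, the others 495.8 to 698.0) and H2afz (1330.5, the others 562.7 to 758.9). Tumour 6-2 was low for Pole, at 7.8 where the other tumours lay between 26.6 and 46.7. Liver 2 was high for Kif20a, at 50.1 where the other livers lay between 19.2 and 28.0.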

How the results depend on the processing

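Tumours against livers gave 0 called members under every alternative tried, also with the animal as a fixed block (replicate block, 0 members, 730 of all genes at an unadjusted p under 0.05 where the fit without it had 985). The block changed no other call, since it could give no value for comparisons with the controls, which are other animals. In livers against controls, 7 members became 4 with a larger constant, 4 with eBayes without a trend, 0 with the actin covariate and 13 with only the groups compared, and leaving out 1 array gave 0 to 9. In tumours against controls, 17 became 0 with the actin covariate and 6 with only the groups compared, and leaving out 1 array gave 6 to 20. Over all genes, the fit of only the groups compared called 1000 genes in the livers and 124 in the tumours, against 162 and 664, and the actin covariate left 22 and 24. Of the calls, 0 of 7 and 5 of 17 (Mcm6, Mcm7, Ccnb2, Mad2l1 and Stmn1) were kept in all fits that left out 1 array. Mitosis minus replication lay between 0.42 and 0.84 under all alternatives. No called result changed its direction. The replication median in tumours against livers, which had no test, changed sign under some alternatives and lay between -0.17 and 0.13. The 3 controls and signals near background limit the sizes of change.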
